A study of Homo sapiens with 4 samples.

Results

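The genes described here are 10 components of the Notch pathway, namely NUMB and NUMBL, the receptors NOTCH1, NOTCH2 and NOTCH3, the ligands JAG1 and DLL1, the transcription factor RBPJ and the target genes HES1 and HEY1. They were taken by name from the 40188 genes with values, after Ensembl IDs had been matched to symbols, and all 10 were found and passed the filter on low values (a mean of at least 1 cRPKM). cRPKM is a corrected RPKM, a count scaled to gene length and depth. The libraries came from HEK293 cells, a human embryonic kidney line, each stably carrying a doxycycline-inducible construct for MSI1, SRRM3, SRRM4 or an empty vector. All 4 lines, the empty vector included, received 1 µg/mL doxycycline for 24 h before polyA-selected, stranded RNA-seq, and no uninduced library was analysed here. The labels do not say whether a line is a pool or 1 clone.

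Each group has 1 library, so no difference below has a replicate check and no p-value is given. Ratios are of counts scaled to the library total, and the range in brackets is an exact 95% counting interval, which covers counting error only and compares libraries, not conditions. Reads of PCR-amplified libraries are not independent molecules. Effects of a transgene, of the line and of the culture cannot be told apart. Total counts lay between 60288244 and 63003121. Each induced gene was highest in its own library: MSI1 was at 62.43 cRPKM there and at 8.38 cRPKM in the empty vector, so the control line already expressed it. In SRRM3 the MSI1 gene was at 10.56 cRPKM, with a ratio over the empty vector of 1.26 (1.18 to 1.35). In SRRM4 it was at 8.19 cRPKM, with a ratio of 0.978 (0.909 to 1.05). The part of this in the values below was not tested. Of 6 HEK293 markers 5 averaged at least 1 cRPKM, led by VIM, while the 4 blood and 3 endothelial markers stayed at or below 0.04 cRPKM. Of the 4 fibroblast markers only COL1A1 exceeded 1 cRPKM, and COL1A2 and DCN were at 0. The summed level of 4 neuron markers was 5.10 cRPKM in MSI1, 17.85 in SRRM3, 13.86 in SRRM4 and 4.64 in the empty vector, and its part in the values below was not tested. The higher sums came mainly from SYP, and from SNAP25 on 23 reads in SRRM3 and 31 in SRRM4. MAP2 had ratios over the empty vector of 1.21 (1.12 to 1.31) in SRRM3 and 0.822 (0.753 to 0.897) in SRRM4. RBFOX3 reached at most 0.13 cRPKM. The 4 neural progenitor markers summed to between 11.22 and 13.38 cRPKM.

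Notch receptors are activated by ligands on a neighbouring cell. A metalloprotease and then the gamma-secretase complex cut the receptor, and the released intracellular domain joins RBPJ on DNA and turns on HES and HEY genes, which encode transcriptional repressors. Numb is an adaptor that promotes endocytosis of Notch and lowers signalling, and MSI1 (Musashi-1) is known as an RNA-binding protein that binds the 3′ UTR of the Numb mRNA and represses its translation. Gene counts measure transcript abundance, and neither translation nor exon inclusion can be read from them.

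The stretches of NUMB that match the Musashi-1 motif are shown first because NUMB is the named mRNA target. The motif, known from selection experiments with the mouse protein, was searched on the sense strand, with U written as T and overlaps counted, as the short forms GTAGT and also ATAGT, the middle forms GTTAGT and also ATTAGT, and the long forms GTTTAGT and also ATTTAGT. The annotated 3′ UTR of the principal NUMB transcript (GENCODE 29, GRCh38) is 1368 bases long and holds 4 matches, shown in capitals with the 9 bases on either side. All lie on the minus strand of chromosome 14.
NUMB site at chr14:73276477-73276500: tgtctcctgATTAGTactcttttc
NUMB site at chr14:73276163-73276185: ctcctgtcaGTAGTggcctgtat
NUMB site at chr14:73275944-73275966: atattttaaATAGTtctcagata
NUMB site at chr14:73275710-73275732: cactaggttGTAGTtttttttaa

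JAG1 had 9 matches in a 3′ UTR of 1814 bases. The 4 of the form GTAGT are shown, because JAG1 was among the genes that set the MSI1 library apart below, and they lie on the minus strand of chromosome 20.
JAG1 site at chr20:10639441-10639463: tgagggcttGTAGTtctttaaac
JAG1 site at chr20:10639338-10639360: ctggcaatgGTAGTttctgtggt
JAG1 site at chr20:10639077-10639099: gacgtacaaGTAGTtctgtattt
JAG1 site at chr20:10637933-10637955: tgagcttacGTAGTtctaccggc

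A match is a string of letters and not a measured binding site. Among 11494 tested genes with an annotated 3′ UTR, 68.6% had at least 1 match, with a median of 1.49 matches per kb. NUMB had 2.92 per kb, and 23.2% of these genes had as many or more. NUMBL, DLL1 and HES1 had no match. JAG1 had 4.96 per kb and HEY1 5.09 per kb from 6 matches, densities reached by 5.42% and 4.95% of genes, and RBPJ had 17 matches at 4.12 per kb.

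NUMB (ENSG00000133961, GRCh38 chromosome 14, 73275107 to 73458617) was at 19.45 cRPKM in MSI1, 18.72 in SRRM3, 16.86 in SRRM4 and 15.54 in the empty vector. These levels rest on 4360, 4190, 3616 and 3433 reads in the same order. All 3 induced lines were above the empty vector, and MSI1 was highest, although its ratio to SRRM3 of 1.04 (0.995 to 1.08) does not exceed counting error. Against the empty vector the ratio of NUMB was 1.252 (1.20 to 1.31) in MSI1, 1.20 (1.15 to 1.26) in SRRM3 and 1.08 (1.03 to 1.14) in SRRM4. The 3 ratios share the empty-vector library. NUMB has 217 exonic bases, 2.27% of its total, in common with a gene on the same strand for which no value was analysed here. An absolute log2 fold as large as that of NUMB in MSI1, 0.31, was reached by 12.9% of the 12705 genes tested.

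NUMBL (chromosome 19, 40665905 to 40690972), the Numb-like paralog with an overlapping role, showed the same order at a lower level. It was at 7.41 cRPKM in MSI1, 7.04 in SRRM3, 6.15 in SRRM4 and 5.47 in the empty vector. The ratio over the empty vector was 1.35 (1.26 to 1.46) in MSI1, 1.29 (1.19 to 1.39) in SRRM3 and 1.12 (1.04 to 1.22) in SRRM4. MSI1 and SRRM3 again lay within counting error of each other, at a ratio of 1.05 (0.981 to 1.13). The level of NUMB per length was 2.62 times that of NUMBL in MSI1, 2.66 in SRRM3, 2.74 in SRRM4 and 2.84 in the empty vector. Together they summed to 26.86 cRPKM in MSI1, 25.76 in SRRM3, 23.01 in SRRM4 and 21.01 in the empty vector.

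**Figure D1:**
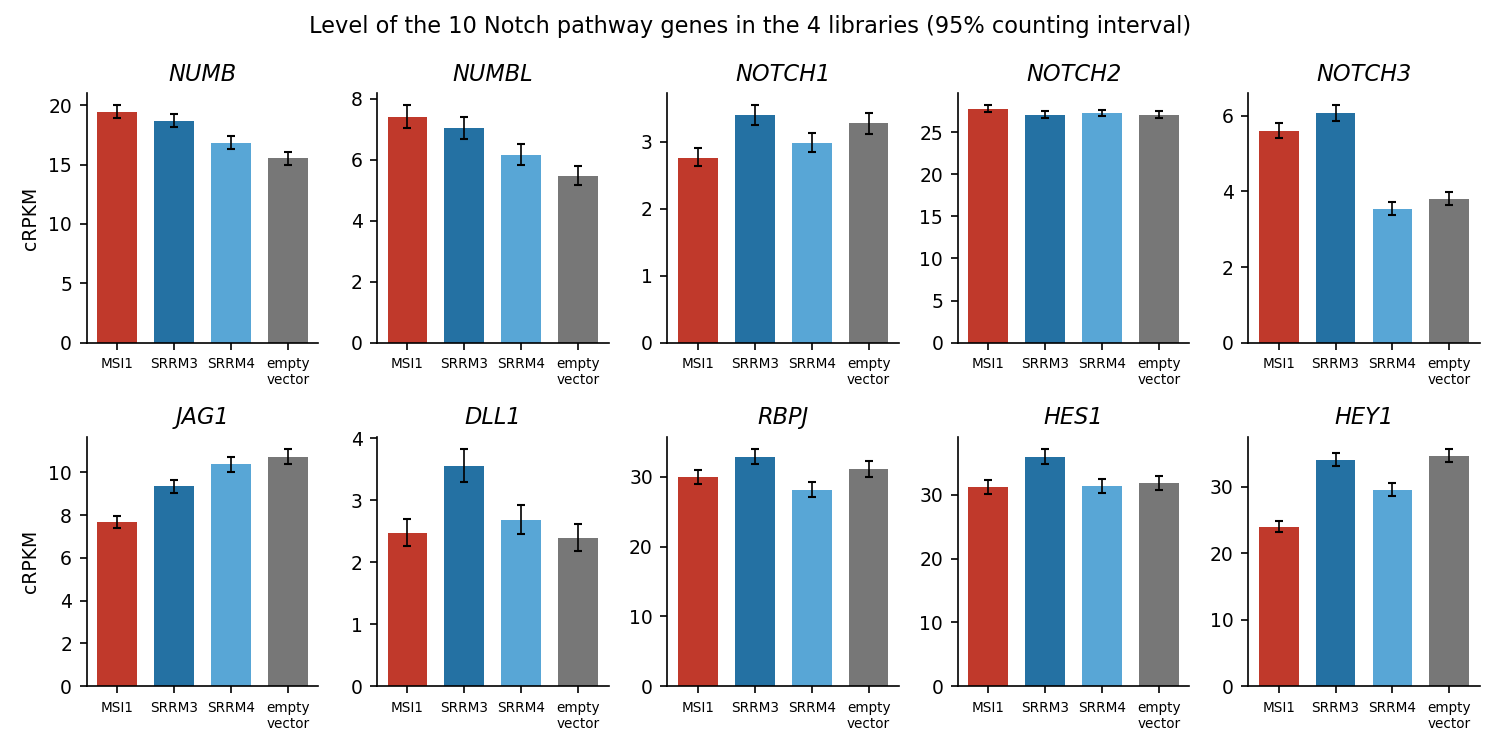
Level of each of the 10 genes in cRPKM (vertical axes from 0, scaled per gene) in the MSI1, SRRM3, SRRM4 and empty-vector libraries, with the exact 95% counting interval of the single library as error bar. NUMB and NUMBL step down in the same order over the 4 libraries, NOTCH2 lies between 27.08 and 27.81 cRPKM, and JAG1 and HEY1 are lowest in MSI1.

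Among the receptors, NOTCH2 (chromosome 1, 119911553 to 120069626) made up most of the receptor RNA and hardly varied. It was at 27.81 cRPKM in MSI1, 27.08 in SRRM3, 27.26 in SRRM4 and 27.08 in the empty vector, on at least 17130 reads per library. Its share of the summed level of NOTCH1 to NOTCH4 was 76.0% in MSI1, 73.1% in SRRM3, 79.9% in SRRM4 and 78.4% in the empty vector. The largest of its ratios over the empty vector was 1.03 (1.01 to 1.05), in MSI1. NOTCH2NLA, a near-identical partial copy of NOTCH2, lay between 1.60 and 2.08 cRPKM, and the split of reads between these genes is uncertain. Its ratio in SRRM3 over the empty vector was 1.30 (1.00 to 1.70), on 136 and 103 reads, at the edge of counting error.

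NOTCH3 (chromosome 19, 15159038 to 15200981) varied most of the 10 genes, with its highest level 1.71 times its lowest. It was at 5.61 cRPKM in MSI1, 6.07 in SRRM3, 3.54 in SRRM4 and 3.81 in the empty vector, so the libraries formed a higher and a lower pair. The ratio over the empty vector was 1.47 (1.39 to 1.56) in MSI1 and 1.59 (1.51 to 1.69) in SRRM3, against 0.929 (0.872 to 0.990) in SRRM4. NOTCH3 was thus higher in SRRM3 and slightly lower in SRRM4, beyond counting error in each.

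NOTCH1 (chromosome 9, 136494433 to 136545786) was at 2.76 cRPKM in MSI1, 3.39 in SRRM3, 2.98 in SRRM4 and 3.27 in the empty vector. It was lowest in MSI1, with a ratio of 0.845 (0.790 to 0.903) over the empty vector, 0.814 (0.761 to 0.869) over SRRM3 and 0.926 (0.864 to 0.991) over SRRM4. The fourth receptor gene, NOTCH4, stayed between 0.33 and 0.52 cRPKM.

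JAG1 (chromosome 20, 10637684 to 10673999) was the most abundant of the activating ligands in each library. It was at 7.70 cRPKM in MSI1, 9.35 in SRRM3, 10.37 in SRRM4 and 10.74 in the empty vector. The MSI1 level was below each other library, with ratios of 0.717 (0.683 to 0.752) over the empty vector, 0.824 (0.784 to 0.866) over SRRM3 and 0.743 (0.707 to 0.780) over SRRM4. SRRM3 was also below the empty vector, at 0.870 (0.831 to 0.910), while SRRM4 lay within counting error of it, at 0.965 (0.923 to 1.01).

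DLL1 (chromosome 6, 170282206 to 170306565) was the least abundant of the 10 genes in the 4 libraries, except in SRRM3, where NOTCH1 was lower. It was at 2.47 cRPKM in MSI1, 3.56 in SRRM3, 2.68 in SRRM4 and 2.39 in the empty vector, from 463 to 700 reads. SRRM3 stood above the other libraries, with a ratio of 1.49 (1.33 to 1.68) over the empty vector. The ratios of 1.04 (0.911 to 1.18) in MSI1 and 1.12 (0.986 to 1.27) in SRRM4 were within counting error of 1. JAG1 was 3.12 times as abundant per length as DLL1 in MSI1, 2.63 in SRRM3, 3.87 in SRRM4 and 4.49 in the empty vector.

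RBPJ (chromosome 4, 26163455 to 26435131), which binds DNA for the pathway, was at 29.96 cRPKM in MSI1, 32.89 in SRRM3, 28.10 in SRRM4 and 31.07 in the empty vector. Over the empty vector it had ratios of 0.964 (0.917 to 1.01) in MSI1, 1.06 (1.01 to 1.11) in SRRM3 and 0.904 (0.859 to 0.952) in SRRM4. With 17 motif matches in its 3′ UTR, the most of the 10 genes, RBPJ in MSI1 lay within counting error of the empty vector.

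HES1 (chromosome 3, 194136145 to 194138732), a classical Notch target, was at 31.18 cRPKM in MSI1, 35.99 in SRRM3, 31.36 in SRRM4 and 31.88 in the empty vector. SRRM3 was highest, with a ratio of 1.13 (1.07 to 1.19). MSI1 and SRRM4 had ratios of 0.978 (0.930 to 1.03) and 0.984 (0.935 to 1.04), both within counting error of 1.

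The region before the HES1 start is shown because HES1 is a classical Notch target and the region holds 2 matches to the RBPJ core. This core, TGGGAA, was searched on both strands and is in capitals. Both matches lie on the plus strand. RBPJ sites of another spelling are not marked, and whether these matches form a bound pair was not tested. RefSeq gives the sequence on GRCh38.p14, plus strand, and the matches begin 84 and 70 bases before the RefSeq start, 194136148, with 8 bases between them.
HES1 promoter at chr3:194135998-194136144: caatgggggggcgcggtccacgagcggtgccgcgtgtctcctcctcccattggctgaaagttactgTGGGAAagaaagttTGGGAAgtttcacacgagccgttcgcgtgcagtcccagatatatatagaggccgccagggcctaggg

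TGGGAA occurred at least once in 24.0% of 35116 RefSeq promoter windows of 300 bases and at least 2 times in 3.80%. Of the 8 genes with a window (NUMB, NUMBL, NOTCH1, NOTCH2, NOTCH3, JAG1, RBPJ and HES1), HES1 and 1 of the 5 windows of RBPJ held it.

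HEY1 (chromosome 8, 79764010 to 79767863), the other target gene, was at 23.95 cRPKM in MSI1, 34.08 in SRRM3, 29.55 in SRRM4 and 34.70 in the empty vector. MSI1 was lowest, with a ratio of 0.690 (0.660 to 0.721) over the empty vector, 0.703 (0.672 to 0.734) over SRRM3 and 0.810 (0.774 to 0.849) over SRRM4. SRRM4 was also below the empty vector, at 0.852 (0.817 to 0.888), and SRRM3 lay within counting error of it, at 0.982 (0.944 to 1.02). The level of HEY1 was 0.768 times that of HES1 in MSI1, 0.947 in SRRM3, 0.942 in SRRM4 and 1.09 in the empty vector. HEY1 was above HES1 in the empty vector and below it in MSI1, with intervals that did not overlap. In SRRM3 and SRRM4 HEY1 was also below HES1, with intervals that overlapped. Overlap alone does not decide the order, and an interval for the ratio between these genes was not computed.

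Within the empty vector the 10 genes ranked, per length, HEY1, HES1, RBPJ, NOTCH2, NUMB, JAG1, NUMBL, NOTCH3, NOTCH1 and DLL1. HES1 at 31.88 cRPKM (30.8 to 33.0) and RBPJ at 31.07 (30.0 to 32.2) could not be ordered beyond counting error. The other neighbours had intervals that did not overlap.

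**Figure D2:**
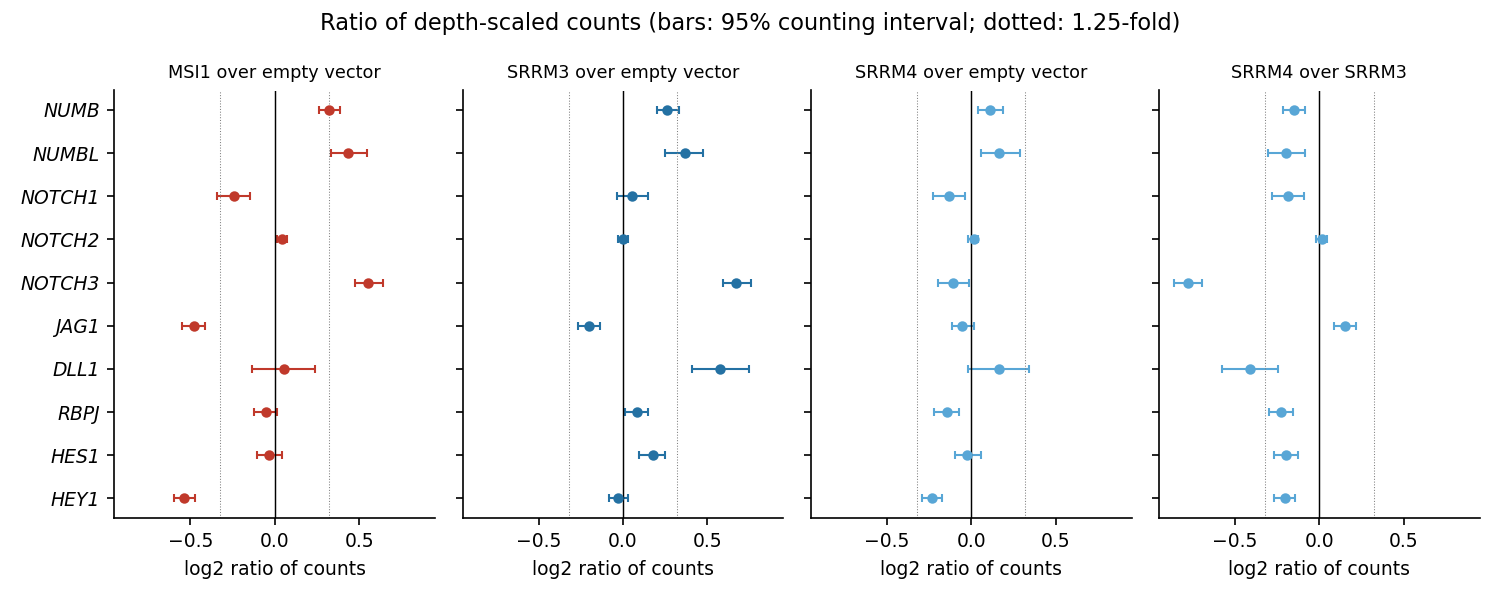
Ratio of depth-scaled counts (log2, horizontal axis) of the 10 genes in MSI1, SRRM3 and SRRM4 over the empty vector and in SRRM4 over SRRM3; bars are exact 95% counting intervals and dotted lines mark a ratio 25% above 1 and its inverse, 0.8. In MSI1, NUMB, NUMBL and NOTCH3 lie to the right and JAG1 and HEY1 to the left, while in SRRM4 over the empty vector no gene passes these lines.

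None of the 10 genes reached the 2-fold rule (an absolute log2 fold of at least 1 after adding 0.5 cRPKM) in any comparison. Over the empty vector it called 0.669% of all tested genes for MSI1, 0.882% for SRRM3 and 0.771% for SRRM4, and it called 0.512% for SRRM4 over SRRM3. A 25% rule, met by a ratio at least 25% above 1 or at most 0.8 with a counting interval that excludes 1, describes the smaller differences. In MSI1 over the empty vector it called 3 of 10 genes as higher (NUMB, NUMBL and NOTCH3), against 8.00% of all genes. It called 2 of 10 as lower (JAG1 and HEY1), against 4.98% of all genes. NUMB is at the edge of this rule: with TMM scaling its ratio was 1.22 (1.17 to 1.28) and the call was lost.

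In SRRM3 over the empty vector the same rule called 3 of 10 genes as higher (NUMBL, NOTCH3 and DLL1), against 6.85% of all genes, and 0 as lower, against 3.86%. In SRRM4 over the empty vector it called 0 of 10 in either direction, against 2.95% higher and 3.07% lower among all genes. As median absolute log2 fold the 10 genes had 0.262 with MSI1, 0.181 with SRRM3 and 0.115 with SRRM4, beside 0.120, 0.112 and 0.088 over all tested genes in the same order. The signed medians were 0.003, 0.127 and -0.036, beside 0.016, 0.003 and -0.003. The 10 genes were chosen as a pathway with earlier results of these data known, so these counts are a description.

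SRRM4 set directly against SRRM3, the related splicing regulator, avoids the empty vector. It had 2 of 10 genes lower by the 25% rule (NOTCH3 and DLL1), against 7.46% of all genes, and 0 higher, against 3.84%. For NOTCH3, 3.54 cRPKM in SRRM4 stood against 6.07 in SRRM3, and the ratio was 0.583 (0.550 to 0.617). For DLL1, 2.68 cRPKM in SRRM4 stood against 3.56 in SRRM3, with a ratio of 0.751 (0.669 to 0.843). Of the other 8 genes, JAG1 was higher in SRRM4 at 1.11 (1.06 to 1.16), NOTCH2 was within counting error at 1.01 (0.986 to 1.03), and 6 had ratios between 0.854 and 0.900.

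The 3 other lines give the only view of how lines vary. Genes were therefore sought whose level in MSI1 lay on 1 side of each other library with all 3 intervals excluding 1. Of the 10 genes 3 were lower in MSI1 in this sense (NOTCH1, JAG1 and HEY1), against 13.1% of all genes, and 0 were higher, against 17.0%. NUMB, NUMBL and NOTCH3 were not among them, since NUMB and NUMBL in MSI1 lay within counting error of SRRM3, and NOTCH3 was below SRRM3, at 0.924 (0.880 to 0.971). None of the 3 genes met the 25% rule against every other library. The MSI1 gene itself was above the empty vector in SRRM3, at 1.26 (1.18 to 1.35), and its part here was not tested.

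**Figure D3:**
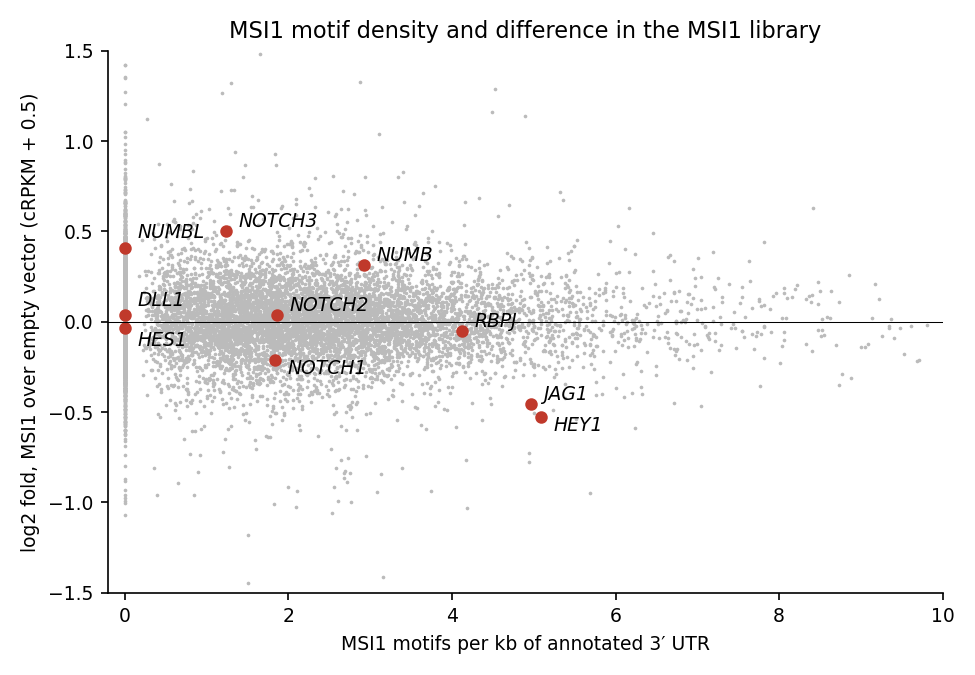
Matches to the MSI1 motif per kb of annotated 3′ UTR (horizontal axis) and log2 fold of MSI1 over the empty vector (vertical axis) for tested genes (grey, 11416 within the axes and 78 outside) and the 10 genes (red). JAG1 and HEY1 lie at about the same density and fold, RBPJ at a high density near no difference, and NUMBL at no match with a positive fold.

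Over all tested genes with a 3′ UTR, the median log2 fold in MSI1 was 0.025 for the 3605 genes with no match and 0.006 for the 1185 with over 10 matches. The quartiles were -0.091 and 0.159 without a match and -0.083 and 0.094 with over 10. Genes with more matches had longer 3′ UTRs, with medians of 373 and 5062 bases for these groups. Among the 10 genes the 3 without a match had log2 folds of 0.41 (NUMBL), 0.04 (DLL1) and -0.03 (HES1), and the 3 densest had -0.53 (HEY1), -0.45 (JAG1) and -0.05 (RBPJ).

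The rest of the pathway, and 5 other mRNAs reported to be bound by MSI1, were taken from lists of 95 further genes. Of these genes 93 were found and 80 passed the filter. None was 2-fold different in any comparison. Against the empty vector, the 25% rule called 3 of 80 (3.75%) higher for MSI1, beside 8.00% of all genes, and 10 of 80 (12.5%) lower, beside 4.98%. For SRRM3 it called 7 (8.75%) higher, beside 6.85%, and 2 (2.5%) lower, beside 3.86%. For SRRM4 it called 0 higher, beside 2.95%, and 3 (3.75%) lower, beside 3.07%, so the shares for SRRM3 and SRRM4 lay near those of all genes. The 13 genes below the filter reached at most 1.07 cRPKM, and HES5, RBPJL and DCX had no read in any library, where a floor of 3 reads is 0.0476 to 0.0498 CPM.

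Of 11 further genes listed as targets that passed the filter, the 25% rule called 5 lower and 0 higher in MSI1, beside 4.98% and 8.00% of all genes. Their median log2 fold was -0.248, beside 0.016 for all genes. Whether Notch controls each listed gene, HES6 included, was not tested. MYC, a proliferation factor with many inputs besides Notch, was at 8.63 cRPKM in MSI1, 9.83 in SRRM3, 15.11 in SRRM4 and 15.31 in the empty vector. The ratio of MYC over the empty vector was 0.564 (0.526 to 0.605) in MSI1 and 0.642 (0.600 to 0.686) in SRRM3, against 0.987 (0.929 to 1.05) in SRRM4. CCND1 (cyclin D1) had a ratio of 0.748 (0.721 to 0.777) in MSI1, and was also lower in SRRM3, at 0.809 (0.780 to 0.839). The other 3 genes called lower, named after their values were seen, were ID1, ID3 and SOX9 at 0.744, 0.752 and 0.782, all of which other pathways also control. The 4 further HES and HEY genes that passed the filter, given here after their values were seen, were not called in MSI1. HES4 had a ratio of 0.977 (0.915 to 1.04) and HEY2 of 0.923 (0.860 to 0.991), while HES6 at 1.19 (1.09 to 1.30) and HEYL at 1.18 (1.05 to 1.32) were higher beyond counting error. The remaining targets, NRARP and GATA3, were not called either. NRARP was lower beyond counting error, at 0.831 (0.749 to 0.922). It was also lower in MSI1 than in SRRM3, at 0.747 (0.675 to 0.827), and SRRM4, at 0.797 (0.718 to 0.884). GATA3 was at 1.01 (0.948 to 1.08). HES7, below the filter, had 60 reads in MSI1 and 23 in the empty vector, with a ratio of 2.57 (1.57 to 4.36).

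In SRRM3 the same 11 targets had a median log2 fold of 0.108, with HES4 higher at 45.74 cRPKM, against 34.41 in the empty vector, and MYC and ID1 lower. The summed level of HES1, HES4, HES5, HEY1, HEY2 and HEYL was 100.59 cRPKM in MSI1, 128.75 in SRRM3, 111.20 in SRRM4 and 113.18 in the empty vector.

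Of 8 nuclear coactivators 2 were called lower in MSI1 and 0 higher, beside 4.98% and 8.00% of all genes. The 2 were MAML2 and MAML3, which bridge RBPJ to the acetylation machinery. MAML2, with a mean of 1.03 cRPKM just above the filter, was at 0.66 cRPKM in MSI1, 1.34 in SRRM3, 0.96 in SRRM4 and 1.15 in the empty vector. Its ratio for MSI1 was 0.576 (0.497 to 0.667). MAML3 had a ratio of 0.693 (0.616 to 0.778), while MAML1, the most abundant MAML gene, was at 0.933 (0.901 to 0.965). Of 16 corepressors 2 were called lower and 2 higher in MSI1 (12.5% each, beside 4.98% and 8.00% of all genes). SPEN, a large RBPJ-binding corepressor, was at 31.40 cRPKM in MSI1, 46.67 in SRRM3, 45.55 in SRRM4 and 47.02 in the empty vector. On 24103 reads in MSI1 its ratio was 0.668 (0.657 to 0.679), and MSI1 stood below all 3 other libraries. TLE1 was lower too, at 0.783, while TLE2 and BEND6 were higher at 1.29 and 1.45. TLE2 was also higher in SRRM3, at 1.43 (1.26 to 1.64), the only corepressor called there, beside 6.85% of all genes called higher and 3.86% lower.

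Of the 9 proteases and gamma-secretase subunits none was called in MSI1 or SRRM4. APH1B, a gamma-secretase subunit, was the 1 called in SRRM3, at 7.57 cRPKM, against 5.50 in the empty vector, and had a ratio of 1.38 (1.28 to 1.47). Among 4 glycosyltransferases POFUT1, which adds O-fucose to the receptors, was the 1 called lower in MSI1, at 0.769 (0.710 to 0.832). POFUT1 was also below the empty vector in SRRM3, at 0.808 (0.747 to 0.874), and in SRRM4, at 0.893 (0.827 to 0.964). Its ratio of MSI1 to SRRM3, 0.952 (0.876 to 1.03), was within counting error of 1. Of the 3 further ligands that passed the filter DLK2 was higher in SRRM3 at 1.29 (1.07 to 1.54), and JAG2 had a ratio of 1.18 (1.10 to 1.27) there.

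Among 11 ubiquitin ligases and trafficking genes 2 were called lower in SRRM4, beside 3.07% of all genes, and 1 higher in SRRM3, beside 6.85%. None was called in MSI1, beside 8.00% of all genes higher and 4.98% lower. MIB1, which ubiquitinates ligands so that they can signal, was lower in SRRM4. It was at 19.39 cRPKM in MSI1, 17.32 in SRRM3, 13.49 in SRRM4 and 17.49 in the empty vector. Its ratio for SRRM4 was 0.771 (0.749 to 0.795). NEURL1B was lower in SRRM4 as well, at 0.767 (0.666 to 0.884). DTX3 was higher in SRRM3 at 1.36 (1.27 to 1.45), and less so in MSI1 at 1.18 (1.11 to 1.27). Of the 14 partners of Numb 1 was called higher in SRRM3, beside 6.85% of all genes, and 1 lower in SRRM4, beside 3.07%. LNX1, a ubiquitin ligase that acts on Numb, was higher in SRRM3 at 1.28 (1.14 to 1.44). It was also higher in MSI1, at 1.21 (1.08 to 1.36), and MSI1 lay within counting error of SRRM3, at 0.948 (0.849 to 1.06). MDM2, which binds Numb and p53, was lower in SRRM4 at 0.798 (0.782 to 0.815). It was less so in MSI1, at 0.897 (0.880 to 0.915), and SRRM3, at 0.933 (0.915 to 0.951).

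**Figure D4:**
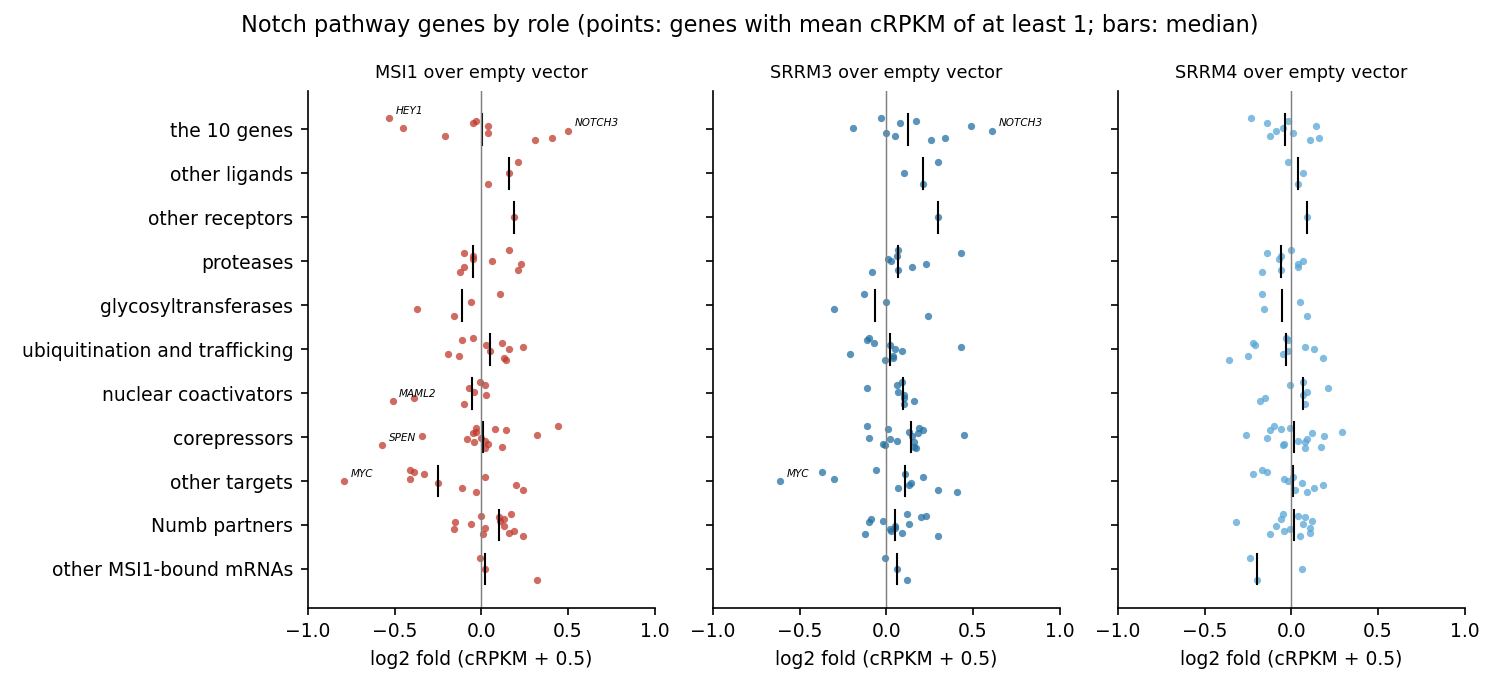
Log2 fold over the empty vector (cRPKM with 0.5 added, horizontal axis) of the 10 genes and of 80 further listed genes, in MSI1, SRRM3 and SRRM4. The further genes are grouped by role and include other mRNAs reported to be bound by MSI1. Each point is a gene that passed the filter, and black bars are group medians. Genes with an absolute value of at least 0.5 are named. The further targets are centred at -0.248 in MSI1 and at 0.014 in SRRM4.

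Of 5 other mRNAs reported to be bound by MSI1, 3 passed the filter. Of these, 1 was called higher and 0 lower in MSI1, beside 8.00% and 4.98% of all genes. CDKN1A, a cell cycle inhibitor and p53 target, was at 121.07 cRPKM in MSI1, 104.99 in SRRM3, 83.88 in SRRM4 and 96.64 in the empty vector. Its ratio for MSI1 was 1.253 (1.22 to 1.28), at the edge of the rule for a call. The call of CDKN1A was not tested with TMM scaling, under which NUMB lost its call. APC, of the Wnt pathway, was at 1.02 (0.981 to 1.05) and ACTR2, of the Arp2/3 complex, at 0.996 (0.980 to 1.01) in MSI1, both within counting error of 1. ROBO3, an axon guidance receptor below the filter and named after its values were seen, had 304 reads in MSI1 and 191 in the empty vector, with a ratio of 1.57 (1.30 to 1.89). ROBO3 was also above the empty vector in SRRM3, at 1.38 (1.14 to 1.67), and in SRRM4, at 1.41 (1.16 to 1.70). For ROBO3, MSI1 lay within counting error of SRRM3, at 1.14 (0.961 to 1.34), and of SRRM4, at 1.11 (0.942 to 1.32). MSI2, the paralog of MSI1, was itself at a ratio of 0.805 (0.780 to 0.831) in MSI1.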

How the data were processed

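RNA-seq of 4 induced HEK293 lines was analysed, 1 library each, with groups from the labels. The deposited files give an Ensembl ID, a deposited RPKM value (cRPKM) and a deposited read count per gene. Per the submitters' processing notes, hg38 (GRCh38) was used. For aligner, counter, annotation release and use of strand, the sources used here state nothing. Without strand, reads of a gene and its antisense partner cannot be told apart; JAG1 shares 79 exonic bases with an antisense gene that had at most 1 read in a library. For 8348 well-covered genes, count over cRPKM scaled with the library total within 0.2%. Of 41614 genes 1426 had no value; 39633 had a symbol. Coordinates are from GENCODE 29.

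Log2 folds used cRPKM plus 0.5, and 12706 genes with a mean of at least 1 cRPKM were tested, leaving out the genes induced in the libraries compared. Ratios used counts over library totals with exact conditional (Clopper-Pearson) 95% intervals. Calls are rules of size. The procedure was tested on simulated data. For motifs, the principal transcript with the longest 3′ UTR was used. Pathway genes were named by a fixed rule: those at least 1.5-fold different with an interval excluding 1, and the 2 with the largest fold per list; genes below 0.1 cRPKM throughout could be named too. The other called genes, and NOTCH4, MAML1, HES6, HES7, HEY2, HEYL, NRARP, GATA3, APC and ROBO3, were named after their values were seen. A gene that the rule names is not reported here. The genes and lists were chosen with earlier results of these data known. Alternatives were pseudocounts, filters, folds, centring, TMM and other controls. TMM factors came from edgeR 4.0.16 in R 4.3.3. Everything else ran in Python 3.11.15 with scipy 1.17.1, pandas 2.3.3 and numpy 2.4.6, and figures were drawn with matplotlib 3.10.9.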

Additional observations from a re-analysis of the deposited data

Results flagged for a closer look

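A pair of genes lay on opposite sides of the empty vector in different lines, each beyond counting error; the differences were not tested, since each group has 1 library. NOTCH3 was lower in SRRM4 and higher in SRRM3 than in the empty vector, and its ratio of SRRM4 to SRRM3 was 0.583. It was also higher in MSI1, with a ratio of MSI1 to SRRM4 of 1.59. RBPJ was lower in SRRM4 and higher in SRRM3, with a ratio of SRRM4 to SRRM3 of 0.854.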

How the results depend on the processing

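None of the 10 genes passed the 2-fold rule with either other pseudocount, either other filter, median centring, CPM with TMM factors or the interval. At 1.5-fold 0, 1, 0 and 1 passed in MSI1, SRRM3 and SRRM4 over the empty vector and in SRRM4 over SRRM3; at 25% on the log2 fold 4, 3, 0 and 2; by the 25% rule with the interval 5, 3, 0 and 2. Centring or TMM scaling of that last rule, added after seeing the data, left 4 in MSI1, without NUMB. For NOTCH3 the MSI1 value turned to -0.10 (log2) with SRRM3 as control. Of the alternative log2 folds of single genes, 159 stayed within the counting interval, 20 moved beyond it and 1 turned. Of the 3 genes set apart in MSI1, 3 remained with TMM and 0 by the 25% rule in each.

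The 80 further listed genes gave 1, 1, 0 and 2 at 1.5-fold, 12, 6, 1 and 10 at 25%, and 13, 9, 3 and 13 with the interval, in the same order. All tested genes gave 85, 112, 98 and 65 by the main rule. They gave 33, 50, 43 and 28 with a pseudocount of 2, and 130 in MSI1 with 0.1. CPM with TMM gave 50, 73, 52 and 25. No filter gave 243, 277, 238 and 215, and a mean of at least 5 cRPKM gave 19, 22, 15 and 14. They gave 367, 333, 233 and 278 at 1.5-fold, 1561, 1261, 800 and 1349 at 25%, and 1649, 1361, 765 and 1436 with the interval. The 2-fold rule with the interval gave 45, 66, 53 and 28, and protein-coding genes alone, added after seeing the data, 36, 59, 45 and 25. No paired analysis was possible because each group has 1 library, and leaving out a library was not run for the same reason. Depth limits DLL1 most, at 463 to 700 reads.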
